A study of Aspergillus nidulans with 6 samples.

Results

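The genes described here are 48 backbone genes of secondary metabolism in Aspergillus nidulans, listed by gene ID as polyketide synthase, nonribosomal peptide synthetase or NRPS-like genes. They were listed by kind of gene and not by their measured values, but earlier results of these data were known when the list was made. Of the 48, 44 had a row in the count and RPKM table, which holds 10988 features, and 27 of the 44 had enough reads to be tested. AN7022, AN7838, AN9217 and AN9291 had no row and were not analysed here. RNA came from mycelium of the wild-type strain FGSC A4, 1 genotype throughout, shaken at 37 °C in Barratt's minimal broth. The 3 tyrosol libraries came from cultures that received 35 mM tyrosol in exponential growth, and the 3 untreated libraries from cultures without it. Columns headed T were read as tyrosol, and columns headed K as untreated because K can stand for kontroll, Hungarian for control. Libraries held 9353438 to 11917409 counted reads. Nothing states that replicates were separate cultures, so the p-values rest on a spread between libraries that may be technical only.

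Polyketide synthases join acyl units into carbon chains, and nonribosomal peptide synthetases join amino acids without a ribosome; both are large enzymes built of repeated domains. NRPS-like proteins carry the amino acid activating domain but lack the domain that forms the peptide bond. In filamentous fungi the gene of such an enzyme usually lies beside genes for tailoring enzymes, transporters and a regulator, and these clusters are often silent under laboratory growth. The synthase sets the skeleton of the product, so its transcript is a usual marker of whether a cluster is on. The gene table used here for names, RefSeq assembly ASM1142v1, gave symbols to few of the 44 genes, and most of those symbols follow related genes in other fungi. The genes are therefore named by ID, and which kind of synthase each encodes is not stated where no source gives it.

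Most of these genes were weakly expressed in both conditions. RPKM is the read count scaled by gene length in kilobases and by the library's counted reads. The median over the 44 genes was 0.263 RPKM in tyrosol and 0.465 RPKM untreated, against 10.7 and 14 RPKM over all 10988 features. A mean of at least 1 RPKM was reached by 11 of the 44 in tyrosol and by 16 untreated, which is 25% and 36.4% of them. Over all features that level was reached by 77.7% in tyrosol and 77.8% untreated. Only AN10486 averaged 10 RPKM or more in tyrosol, whereas 6 genes did so untreated. The 44 genes are mostly long, with a median length of 6821.5 bases against 1490 over all features. At an equal RPKM they therefore hold more reads than a gene of usual length, but most had a far lower RPKM.

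Of the 44 genes, 17 (38.6%) were silent in the sense that they had too few reads to enter the test, against 19.0% of all features. Among the 27 tested genes, 6 rose, 17 fell and 4 did not pass at an adjusted p under 0.05. All 6 rises and 14 of the 17 falls were at least 2-fold. The share of all 8905 tested features called changed was 83.5%, with 40.6% raised and 42.9% lowered, so the share of called genes here (85.2%) was near the background. Changes of at least 2-fold were called for 23.1% of all tested features upward and 24.5% downward. Rises of at least 8-fold were called for 5.27% of all tested features and falls for 3.85%; among the 27 genes 2 rose and 6 fell by that much. The median log2 fold change, tyrosol over untreated, was -1.05 over the 27 genes and -0.04 over all tested features. The ranges of tyrosol and untreated libraries did not overlap in 25 of the 27 genes (92.6%), against 84.8% of all tested features.

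The filter on low counts bears on these numbers. Of the 27 tested genes, 7 passed it through 1 group alone, which favours a difference: AN3496, AN2035 and AN0523 through tyrosol, and AN0016, AN1034, AN4827 and AN8910 through untreated. Over all tested features 4.21% passed through tyrosol alone and 4.37% through untreated alone. The shares and large changes given above for the 27 genes include these 7, so they are not on equal terms with the background. AN3496, AN0016, AN1034 and AN8910 are among the changes of at least 8-fold. Of the 20 that passed in both groups, 3 rose, 13 fell and 4 did not pass the test. Over all 44 genes, tested or not, mean RPKM was higher in tyrosol for 13, higher untreated for 30 and equal for 1. That count was not made over all features. RPKM is scaled by library size alone, and with that scaling 3069 of all tested features were called raised and 4401 lowered. In bulk RNA, fewer expressing cells and less RNA per cell cannot be told apart. Scaling by library size alone shifted the median over all features by -0.22 on the log2 scale, so rises and falls are relative to the other features.

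**Figure D1:**
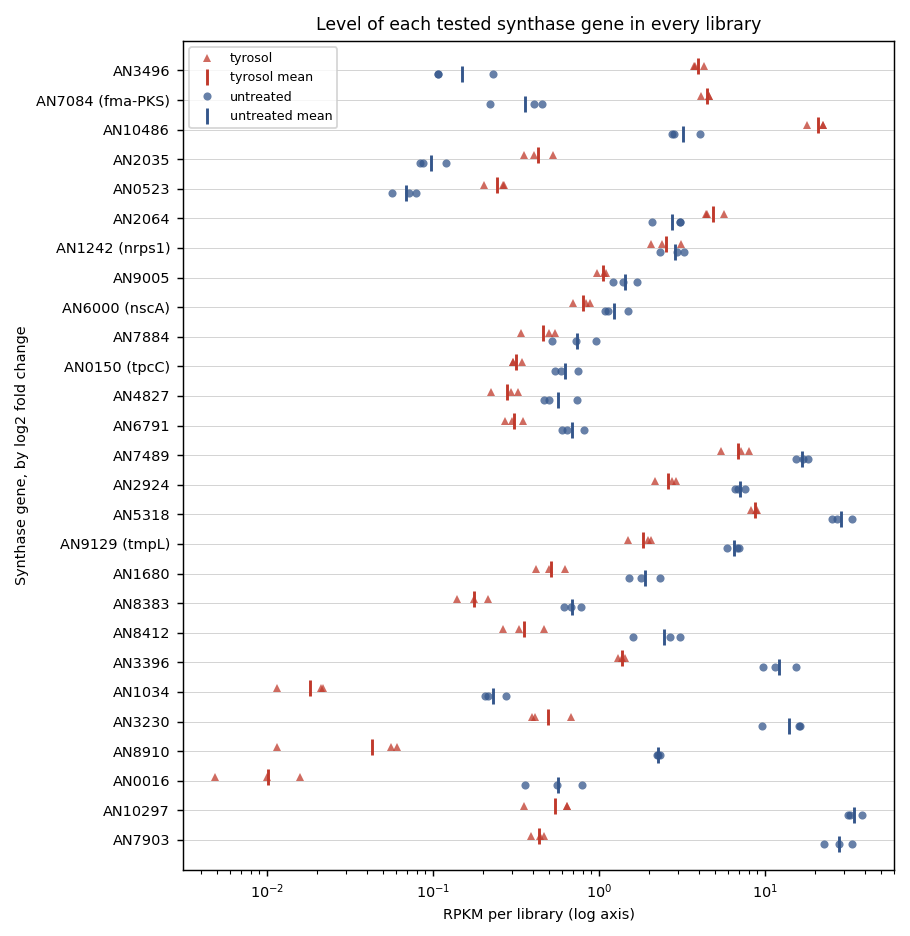
RPKM of the 27 tested synthase genes in each library on a log axis, with tyrosol as triangles, untreated as circles and group means as ticks; genes run from the largest rise at the top to the largest fall at the bottom. AN7903 and AN10297, near 30 RPKM untreated, lie below 1 RPKM in tyrosol, and AN10486 is the one gene above 10 RPKM in tyrosol.

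Together the 44 genes took 0.0285% to 0.0332% of the reads of the tyrosol libraries and 0.0828% to 0.0942% of the untreated ones. Their summed level was 60.4, 68.1 and 68.3 RPKM in tyrosol replicates 1, 2 and 3, against 184, 169 and 163 RPKM in untreated replicates 1, 2 and 3. The groups did not overlap. A few genes made up most of each sum: the top 3 held 52.8% to 57.9% of it in tyrosol and 51.4% to 55.7% untreated. Those 3 were AN10297, AN5318 and AN7903 in all 3 untreated libraries. In tyrosol they were AN10486 and AN5318 with AN2064 or AN7489. Without AN7903 and AN10297, left out after their values were seen, the sums were 59.3 to 67.3 RPKM in tyrosol and 97.9 to 123 RPKM untreated, still without overlap.

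**Figure D2:**
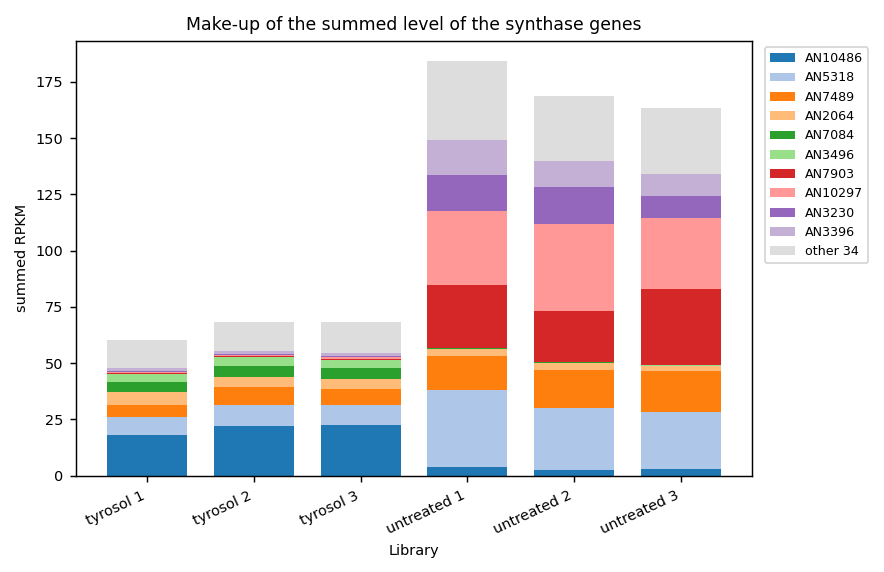
Summed RPKM of the 44 synthase genes in each library, tyrosol on the left and untreated on the right, split by the 10 genes with the largest shares and the other 34. Tyrosol sums lie between 60.4 and 68.3 RPKM with AN10486 as the largest part, and untreated sums between 163 and 184 RPKM with AN7903, AN10297 and AN5318 as the largest parts.

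The order of levels changed with the condition. Untreated, AN10297 averaged 34.4 ± 3.62, AN5318 28.9 ± 4.35, AN7903 28.1 ± 5.47, AN7489 16.8 ± 1.41 and AN3230 14 ± 3.80 RPKM (SD, n = 3). The ranges of AN10297, AN5318 and AN7903 overlapped, as did those of AN7489 and AN3230. In tyrosol, AN10486 led with 20.9 ± 2.62, followed by AN5318 at 8.74 ± 0.407, AN7489 at 6.91 ± 1.35, AN2064 at 4.88 ± 0.711 and AN7084 at 4.46 ± 0.273 RPKM. There the ranges of AN7489 and AN2064 overlapped, as did those of AN2064 and AN7084, so only the first 2 places were separate from the next gene. AN5318 and AN7489 were among the 5 highest in both conditions. AN7489, at 1369 bases, is the shortest of the 44 and lies under the median of 1490 bases over all features. Whether its row covers a whole synthase gene was not tested.

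Among raised genes, AN3496 had the largest rise. Its level was 3.77, 4.28 and 3.80 RPKM in tyrosol (280, 336 and 305 reads), against 0.108, 0.108 and 0.230 RPKM untreated (9, 9 and 15 reads). Every tyrosol library lay far above every untreated one. AN3496 passed the filter on low counts through tyrosol alone, which favours a rise. The log2 fold change was 4.99 ± 0.20 (SE), 31.9-fold, with adjusted p = 8.2e-11 in edgeR's quasi-likelihood test with Benjamini-Hochberg adjustment, which all adjusted p-values below share. The next gene in RefSeq order, AN3495, is also one of the 44 and stayed near silence, with 1, 2 and 4 reads in tyrosol and 1, 2 and 1 untreated. The pair of neighbouring synthase genes thus had unequal levels in tyrosol.

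AN7084 carries the symbol fma-PKS, the name of the polyketide synthase of fumagillin synthesis in Aspergillus fumigatus. It had 4.15, 4.63 and 4.62 RPKM in tyrosol and 0.454, 0.408 and 0.222 RPKM untreated. The groups lay far apart without overlap; the log2 fold change was 3.81 ± 0.18, 14-fold (adjusted p = 2.8e-10). Its neighbour AN7083, with the symbol fma-AT after an acyltransferase gene of the same Aspergillus fumigatus cluster, also rose. AN7083 averaged 4.63 ± 0.224 RPKM in tyrosol and 0.436 ± 0.157 RPKM untreated (SD, n = 3; log2 fold change 3.57 ± 0.29, adjusted p = 6.6e-08). AN7081, 4 places from AN7084, fell, its log2 fold change being -3.45 ± 0.29 (adjusted p = 1.2e-07).

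AN10486 became the most abundant of the 44 transcripts in tyrosol. It had 17.9, 22.3 and 22.6 RPKM in tyrosol and 4.09, 2.77 and 2.84 RPKM untreated. The log2 fold change was 2.91 ± 0.15, 7.52-fold (adjusted p = 9.4e-10). Its mean level exceeded that of 63.3% of all features in tyrosol and of 31.0% untreated. AN2064 had 5.69, 4.52 and 4.41 RPKM in tyrosol and 3.07, 3.10 and 2.08 RPKM untreated. Its log2 fold change of 1.03 ± 0.17 (adjusted p = 6.5e-05) lay at the 2-fold mark, and was 0.96 with upper-quartile factors, 0.81 with library size alone, 0.88 without untreated replicate 3 and 0.93 without tyrosol replicate 1.

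AN2035 and AN0523 rose but stayed weakly expressed. Both passed the filter on low counts through tyrosol alone, which favours a rise. AN2035 had 29, 35 and 47 reads in tyrosol and 11, 8 and 6 untreated, a log2 fold change of 2.35 ± 0.29 (adjusted p = 5.5e-06). AN0523 had 16, 22 and 23 reads in tyrosol and 7, 5 and 5 untreated, a log2 fold change of 2.03 ± 0.33 (adjusted p = 6.8e-05); with limma on log2(RPKM + 1) its adjusted p was 0.11. Tyrosol and untreated libraries did not overlap in RPKM, and both genes stayed under 1 RPKM in every library. AN2032, 3 places from AN2035, differed the other way, with 1, 2 and 1 reads in tyrosol and 10, 13 and 7 untreated.

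**Figure D3:**
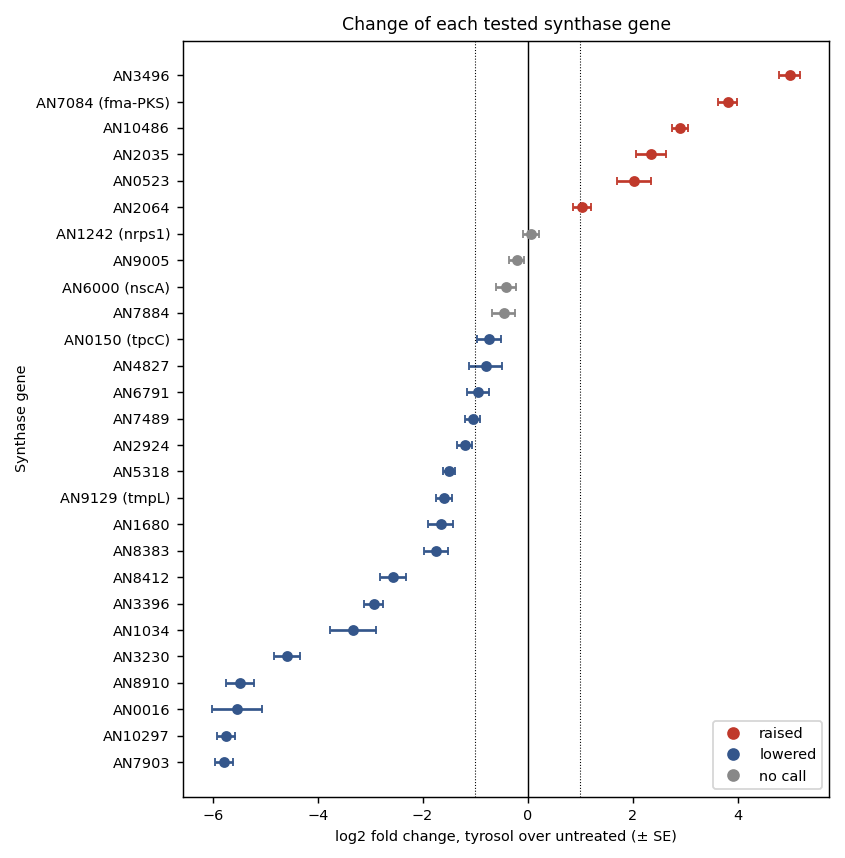
Log2 fold change, tyrosol over untreated, with its SE for the 27 tested synthase genes, coloured by call; dotted lines mark 2-fold. The 6 rises run from 1.03 to 4.99 and the 17 falls from -0.74 to -5.79, with 4 genes without a call between them.

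Among lowered genes, AN7903, AN10297, AN0016 and AN8910 had log2 fold changes between -5.79 and -5.48, whose order lies within their SEs. AN7903 and AN10297 were among the 3 highest of the 44 untreated. AN7903 had 0.445, 0.466 and 0.389 RPKM in tyrosol (37, 41 and 35 reads), against 27.9, 22.7 and 33.7 RPKM untreated (2597, 2116 and 2462 reads). The log2 fold change was -5.79 ± 0.17, a 55.3-fold fall (adjusted p = 5.0e-12). AN10297 had 0.645, 0.356 and 0.645 RPKM in tyrosol and 32.8, 38.6 and 31.9 RPKM untreated, a log2 fold change of -5.74 ± 0.17 (adjusted p = 4.6e-12). Both fell far down the range of all features. The mean level of AN7903 exceeded that of 17.6% of features in tyrosol and 65.4% untreated, and AN10297 exceeded 18.9% in tyrosol and 70.6% untreated.

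AN0016 and AN8910 fell to near silence. Both passed the filter on low counts through untreated alone, which favours a fall. AN0016, with a length of 17808 bases among the 3 longest of the 44, had 3, 2 and 1 reads in tyrosol and 169, 118 and 60 untreated. Relative to counted reads, the untreated libraries held 58.2 times as many reads as the tyrosol libraries, with a 95% exact binomial interval of 26.5 to 160 that covers counting error only. AN8910 had 5, 1 and 5 reads in tyrosol and 217, 209 and 163 untreated, a ratio of 53.9 (29.9 to 109). The log2 fold changes were -5.54 ± 0.47 for AN0016 (adjusted p = 1.2e-07) and -5.48 ± 0.26 for AN8910 (adjusted p = 4.1e-10). The untreated values of AN8910 lay between 2.25 and 2.35 RPKM, while those of AN0016 spread from 0.360 to 0.796 RPKM.

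AN3230 had 0.394, 0.412 and 0.679 RPKM in tyrosol and 16.1, 16.4 and 9.65 RPKM untreated, with untreated replicate 3 the lowest of its group. Its log2 fold change was -4.59 ± 0.25 (adjusted p = 1.2e-09). AN1034 had 1, 2 and 2 reads in tyrosol and 21, 20 and 21 untreated, a ratio of 12.5 untreated over tyrosol with a counting interval of 5.07 to 39.8 (log2 fold change -3.33 ± 0.44, adjusted p = 9.4e-06). With limma on log2(RPKM + 1) the adjusted p of AN1034 was 0.053. AN1034 passed the filter on low counts through untreated alone, which favours a fall. AN1036, 3 places from it, had 0, 1 and 2 reads in tyrosol and 2, 0 and 0 untreated.

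AN3396 had 1.38, 1.31 and 1.44 RPKM in tyrosol and 15.4, 11.5 and 9.71 RPKM untreated (log2 fold change -2.93 ± 0.18, adjusted p = 5.1e-09). AN8412 had 0.263, 0.468 and 0.332 RPKM in tyrosol and 3.09, 2.67 and 1.61 RPKM untreated (-2.57 ± 0.25, adjusted p = 5.4e-07). In both genes the lowest untreated library was replicate 3, still above all tyrosol libraries. AN8383 had 0.176, 0.215 and 0.140 RPKM in tyrosol and 0.776, 0.676 and 0.616 RPKM untreated (-1.74 ± 0.23), and AN1680 averaged 0.514 ± 0.106 RPKM in tyrosol and 1.89 ± 0.421 RPKM untreated (-1.66 ± 0.24).

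The other 7 lowered genes had log2 fold changes of -1.60 to -0.74. AN9129 has the symbol tmpL, which in Alternaria brassicicola and Aspergillus fumigatus belongs to a membrane-bound NRPS-like protein that affects redox balance. It averaged 1.85 ± 0.304 RPKM in tyrosol and 6.57 ± 0.556 RPKM untreated (-1.60 ± 0.15, adjusted p = 3.4e-07). AN5318 had 8.28, 9.04 and 8.90 RPKM in tyrosol and 33.8, 27.4 and 25.5 RPKM untreated (-1.5 ± 0.11, adjusted p = 3.8e-08). Its mean ranked second in both conditions, at a lower level in tyrosol, but untreated its range overlapped those of AN10297 and AN7903. AN2924 (-1.20 ± 0.14) and AN7489 (-1.05 ± 0.15) also fell at least 2-fold; without tyrosol replicate 1 the value of AN7489 was -0.89. AN6791 (-0.94 ± 0.21) and AN0150 (-0.74 ± 0.23) fell by less than 2-fold. AN0150 has the symbol tpcC, the polyketide synthase gene of trypacidin synthesis in Aspergillus fumigatus, and had 18, 19 and 22 reads in tyrosol and 36, 39 and 39 untreated. With DESeq2 the adjusted p of AN0150 was 0.053. AN4827, with 10, 8 and 12 reads in tyrosol and 28, 19 and 14 untreated, was the weakest call (-0.80 ± 0.32, adjusted p = 0.033) and lost it without untreated replicate 1 (adjusted p = 0.14), without tyrosol replicate 1 (0.07) or without tyrosol replicate 2 (0.13). AN4827 also lost the call with DESeq2 (adjusted p = 0.14) and with limma on log2(RPKM + 1) (adjusted p = 0.056). It passed the filter on low counts through untreated alone, which favours a fall.

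No call was made for 4 tested genes. AN1242, with the symbol nrps1 after a peptide synthetase gene of Aspergillus fumigatus, had 2.07, 3.14 and 2.42 RPKM in tyrosol and 3.26, 2.35 and 2.96 RPKM untreated, and the groups overlapped. Its log2 fold change was 0.06 ± 0.15 (adjusted p = 0.72). AN9005 had 1.08, 0.975 and 1.11 RPKM in tyrosol and 1.40, 1.22 and 1.69 RPKM untreated (-0.21 ± 0.15, adjusted p = 0.21). AN6000 has the symbol nscA, a polyketide synthase gene of neosartoricin synthesis in Aspergillus fumigatus and Neosartorya fischeri, and had 0.839, 0.695 and 0.889 RPKM in tyrosol and 1.5, 1.14 and 1.09 RPKM untreated (-0.41 ± 0.19, adjusted p = 0.06). AN7884, the longest gene of the set at 21183 bases, had 0.342, 0.504 and 0.542 RPKM in tyrosol and 0.967, 0.730 and 0.520 RPKM untreated (-0.46 ± 0.22, adjusted p = 0.067), with untreated replicate 3 inside the tyrosol range. Without untreated replicate 3, AN6000 (adjusted p = 0.029) and AN7884 (adjusted p = 0.0029) were called lowered, as they were with upper-quartile factors (adjusted p = 0.031 for AN6000 and 0.037 for AN7884). Scaled by library size alone, AN6000 (adjusted p = 0.0062), AN7884 (0.0091) and AN9005 (0.018) were all called lowered, and AN1242 was not. AN6000 was called lowered as well by limma on log2(RPKM + 1) (0.042) and log2(RPKM + 0.1) (0.049), and AN7884 without a filter on low counts (0.048).

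Silence had degrees among the 17 genes not tested. AN8105 had 0 reads in all 6 libraries. A limit of 3 reads over each group, which covers counting error only, corresponds to 0.0269 RPKM in tyrosol and 0.0271 RPKM untreated. Whether reads of AN8105 can be mapped and counted was not tested. AN7071 had 0 reads in tyrosol and 1, 0 and 1 untreated. In 15 of the 17 no library reached 10 reads. The 2 exceptions were AN3386, with 0, 1 and 4 reads in tyrosol and 17, 19 and 8 untreated, and AN2032. Without a filter on low counts both were called lowered, AN3386 at a log2 fold change of -2.84 ± 0.62 (adjusted p = 0.00049) and AN2032 at -2.59 ± 0.60 (adjusted p = 0.00079). The same fit called AN9226 lowered (adjusted p = 0.042) on 0, 1 and 1 reads in tyrosol and 8, 4 and 1 untreated. AN3386 also entered the test, and was called lowered, when untreated replicate 3 or any 1 tyrosol library was left out. Those fits filter anew with 1 library fewer in a group, so fewer libraries need enough reads. AN3386 had enough only untreated, so entering the test favours a fall.

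None of the other 12 untested genes was called without the filter, and none had more than 9 reads in a library. AN1784, with the symbol pyr2 after the pyripyropene polyketide synthase gene of Aspergillus fumigatus, had 0, 1 and 0 reads in tyrosol and 4, 2 and 1 untreated. AN3612 had 0, 3 and 2 reads in tyrosol and 5, 5 and 4 untreated, and AN6431 had 4, 5 and 6 in tyrosol and 2, 4 and 1 untreated. In AN1784 and AN3612 every tyrosol value lay below every untreated one in RPKM, and in AN6431 above. With AN3386, AN2032 and AN9226 this made 6 of the 17 whose groups did not overlap. The share of all untested features without overlap was not computed, so this count has no background beside it. The neighbours AN9243 and AN9244 had 3 to 8 and 2 to 8 reads per tyrosol library and 3 to 6 and 4 to 9 per untreated library. AN6444 and AN6448, 5 places apart, had 3 to 6 and 0 to 4 reads in tyrosol and 2 to 5 and 0 to 6 untreated. AN8504, AN8513 and AN10430 did not exceed 6 reads in any tyrosol library or 9 in any untreated one.

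**Figure D4:**
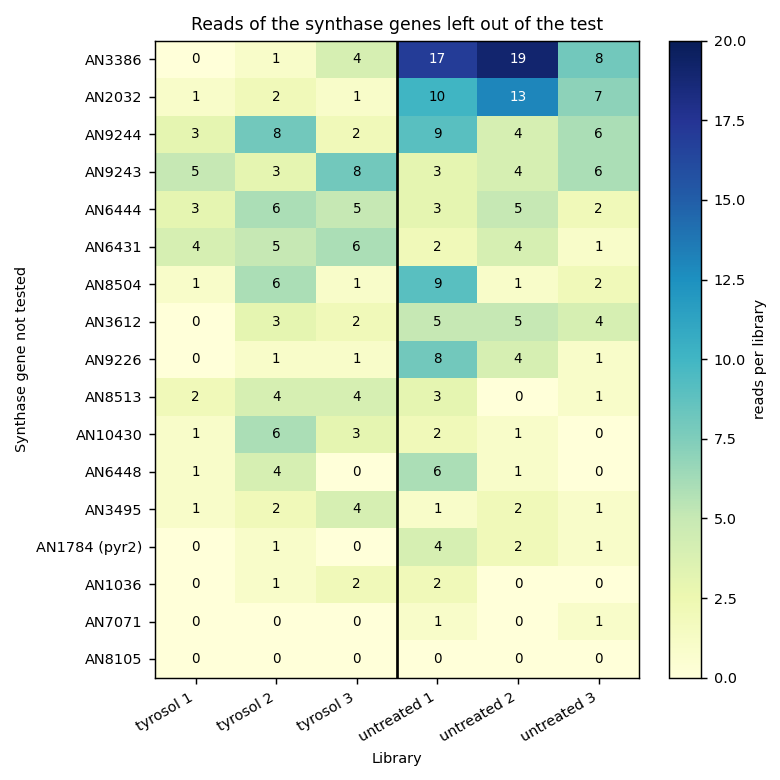
Reads in each library for the 17 synthase genes left out of the test, tyrosol on the left and untreated on the right. AN3386 and AN2032 hold up to 19 and 13 reads untreated and at most 4 and 2 in tyrosol, and AN8105 holds none.

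The genes on either side of each synthase gene were read from RefSeq gene order, 5 on each side. No source gives the genome build used for counting, so that order served only to find neighbours, and no source here states which of them belong to a cluster. Of 360 flanking genes that are not themselves among the 44, 227 were tested and 36.9% were not, a share close to the 38.6% of the synthase genes. Of the 227, 101 (44.5%) rose and 85 (37.4%) fell, 41 had no call, and the median log2 fold change was 0.04. These shares lay near the background of 40.6% raised and 42.9% lowered. How each flanking gene passed the filter on low counts was not worked out. A flanking gene near silence untreated could be tested only if it was high in tyrosol, and the reverse, which favours a difference. Around lowered synthase genes 36 of 106 tested flanking genes rose and 50 fell, a median of -0.18; with 10 genes on each side the counts were 100 and 98. Around raised ones 18 of 35 rose and 14 fell, a median of 0.27. Around the untested ones 36 of 63 rose and 16 fell, a median of 0.90, and 51.5% of the flanking genes there were not tested. Synthase genes that lie near each other share flanking genes, so some are counted in more than 1 of these groups.

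**Figure D5:**
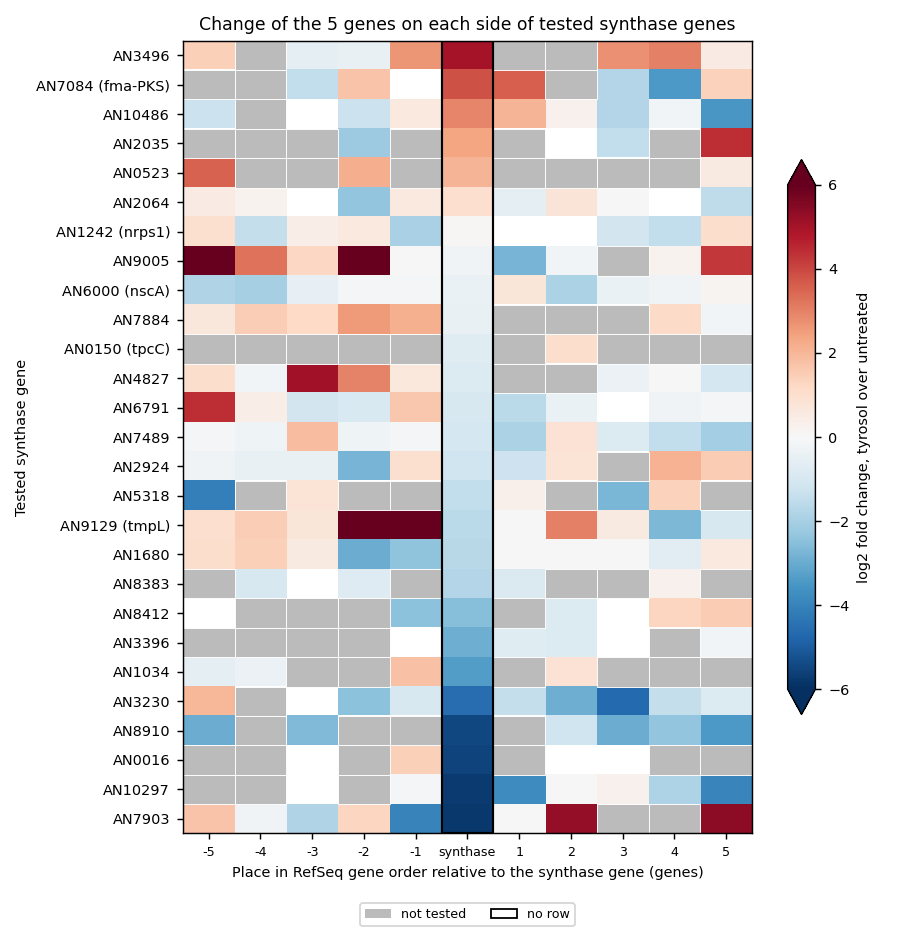
Log2 fold change, tyrosol over untreated, of the 27 tested synthase genes (boxed column) and of the 5 genes on each side in RefSeq gene order; grey cells were not tested, and pure white cells have no row. All tested neighbours of AN8910 and most of those of AN3230 are blue, like the synthase gene, while AN9005, AN9129 and AN7903 have strongly red neighbours.

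Single regions differed widely. All 6 tested flanking genes of AN8910 fell at least 2-fold, with log2 fold changes of -3.46 to -1.18. Those with the largest falls were AN8905, at 3.86 ± 0.763 RPKM in tyrosol and 49.5 ± 8.66 RPKM untreated (-3.46 ± 0.17), and AN8915 (-2.98 ± 0.16). Around AN3230, 7 of 8 tested genes fell and 1 rose. There AN3227 averaged 1 ± 0.517 RPKM in tyrosol and 29.9 ± 7.79 RPKM untreated (-4.66 ± 0.27, adjusted p = 2.4e-09), and AN3228 had a log2 fold change of -2.92 ± 0.23. Around AN10297, 3 of 6 tested genes fell, among them AN11337 (-3.98 ± 0.16) and the adjacent AN2404 (-3.79 ± 0.21), and 1 rose.

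The region of AN7903 was divided. The adjacent AN7902, named after its value was seen, averaged 10.1 ± 2.23 RPKM in tyrosol and 194 ± 59.8 RPKM untreated (-4.03 ± 0.22, adjusted p = 1.4e-09). On the other side AN7905 averaged 14.2 ± 0.621 RPKM in tyrosol and 0.415 ± 0.113 RPKM untreated (5.29 ± 0.23, adjusted p = 1.5e-10), and AN7908 averaged 1.03 ± 0.307 RPKM in tyrosol and 0.0195 ± 0.0338 RPKM untreated. Of the 8 tested flanking genes there, 4 rose and 2 fell. Strand use in counting is not given in the sources used here, so reads of overlapping or antisense neighbours may be shared.

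Around the raised AN3496, 5 of 7 tested flanking genes rose and 2 fell. AN3493 averaged 49.8 ± 2.71 RPKM in tyrosol and 8.66 ± 0.876 RPKM untreated (2.75 ± 0.12, adjusted p = 1.2e-10), and AN3492 had a log2 fold change of 3.02 ± 0.31. The silent AN3495 and its neighbour AN3494 lie between AN3496 and these genes. Around AN2035, AN2039 rose (4.43 ± 0.22) and AN2033 fell (-2.16 ± 0.33). Around AN0523, AN0528 (3.54 ± 0.14) and AN0525 (2.19 ± 0.21) rose and 7 of 10 neighbours were not tested. Around AN10486, 3 of 8 tested genes rose and 4 fell, with AN10491 at 2.04 ± 0.14 and AN10489 at -3.51 ± 0.12.

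Some synthase genes without a rise had raised neighbours. All 7 tested flanking genes of the silent AN8504 rose, with log2 fold changes of 0.90 to 5.44, led by AN8502 at 102 ± 13.2 RPKM in tyrosol and 2.72 ± 0.758 RPKM untreated. All 3 tested flanking genes of the silent AN8513 rose, including AN8510 (4.04 ± 0.62) and AN8512 (3.30 ± 0.41), and the other 7 were not tested. AN8510 and AN8512 averaged only 0.0773 and 0.268 RPKM untreated, so the filter on low counts favours a rise there. Next to AN7884, which had no call, 6 of 7 tested genes rose, among them AN11031 (2.55 ± 0.45) and AN7883 (2.15 ± 0.32). Next to the lowered AN9129, AN9130 averaged 287 ± 17.0 RPKM in tyrosol and 2.46 ± 0.150 RPKM untreated (7.09 ± 0.11, adjusted p = 4.3e-14), and AN9131 had a log2 fold change of 6.48 ± 0.14. Near AN9005, AN9010 (6.69 ± 0.44) and AN9007 (6.52 ± 0.19) rose. Beside AN6000, the genes with the symbols nscB (-0.09 ± 0.27, adjusted p = 0.76) and nscC (-0.11 ± 0.15, adjusted p = 0.48) were also without a call; both were singled out after their values were seen.

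Genes listed as regulators of secondary metabolism moved both ways. Of 21 IDs listed as its regulators, 8 rose, 7 fell, 5 had no call and 1 was not tested. The share called, 75% of the 20 tested, stood beside 83.5% of all tested features, and the median log2 fold change was 0.02. The 10 with a symbol in the gene table were all called. The raised ones included gcnE, a histone acetyltransferase gene, at 63.6 ± 3.90 RPKM in tyrosol and 23.4 ± 3.67 RPKM untreated (1.67 ± 0.11, adjusted p = 1.1e-08). The bZIP regulator gene rsmA rose (1.02 ± 0.09), as did the velvet regulator gene veA (1.76 ± 0.09), sumO (0.67 ± 0.08), which encodes the ubiquitin-like modifier SUMO, and the velvet gene vosA (0.47 ± 0.09). The histone H3 lysine methyltransferase gene clrD averaged 1.10 ± 0.0954 RPKM in tyrosol and 3.70 ± 0.353 RPKM untreated (-1.52 ± 0.20, adjusted p = 8.6e-06). The velvet gene velB (-0.85 ± 0.11), the methyltransferase-domain regulator laeA (-0.65 ± 0.11) and the histone deacetylase genes hdaA (-0.43 ± 0.10) and rpdA (-0.22 ± 0.08, adjusted p = 0.018) also fell; with DESeq2 size factors the adjusted p of rpdA was 0.054. The other 11 go by ID only, since the gene table gives them no symbol, and were named after their values were seen. Of these, AN2059 (0.48 ± 0.10) and AN3492 (3.02 ± 0.31), the neighbour of AN3496 given above, rose, and AN1905 (-1.72 ± 0.10) and AN8211 (-1.35 ± 0.10) fell. AN6749 also rose, at 19.3 ± 0.621 RPKM in tyrosol and 9.54 ± 0.660 RPKM untreated (adjusted p = 1.5e-07). AN8694, AN9399, AN1060, AN0148 and AN8414 had no call, with adjusted p between 0.08 and 0.49, and AN1029 was not tested. Scaled by library size alone, AN9399 (adjusted p = 0.0082) and AN1060 (0.015) were called lowered, and the log2 fold change of AN8694 was -0.11 in place of 0.11.

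All 4 IDs listed for activation of the synthases and supply of precursors rose, with a median log2 fold change of 1.34. Over all tested features 40.6% were raised, and a list of 4 is too short to set against that share. Only aclA, for a subunit of ATP citrate lyase, which supplies acetyl-CoA in the cytosol, has a symbol in the gene table. It averaged 643 ± 64.3 RPKM in tyrosol and 507 ± 24.9 RPKM untreated, and its log2 fold change of 0.57 ± 0.09 was the smallest of the 4. The others were AN6140 (2.29 ± 0.10), AN6126 (1.96 ± 0.13) and AN2436 (0.73 ± 0.10), named after their values were seen.

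Of 8 synthase IDs listed for comparison, none rose, 6 fell and 2 had no call, beside 42.9% of all tested features lowered, and the median log2 fold change was -1.90. The 4 without a symbol, named after their values were seen, were AN2621 (-3.07 ± 0.42), AN2545 (-2.32 ± 0.22) and AN2547 (-1.48 ± 0.11), which fell, and AN7909 (-0.33 ± 0.26, adjusted p = 0.25). The siderophore synthetase gene sidC averaged 1.57 ± 0.334 RPKM in tyrosol and 9.10 ± 2.78 RPKM untreated (-2.31 ± 0.20, adjusted p = 1.7e-07). The siderophore synthetase gene sidD averaged 0.401 ± 0.111 RPKM in tyrosol and 3.67 ± 1.13 RPKM untreated (-2.97 ± 0.26, adjusted p = 1.9e-07). AN8209, with the symbol pksP of a pigment polyketide synthase gene of Aspergillus fumigatus, averaged 1.36 ± 0.232 RPKM in tyrosol and 2.11 ± 0.194 RPKM untreated (-0.41 ± 0.15, adjusted p = 0.022). The conidiophore pigment synthetase gene ivoA averaged 0.841 ± 0.129 RPKM in tyrosol and 0.921 ± 0.340 RPKM untreated (0.08 ± 0.25, adjusted p = 0.77), and its log2 fold change was -0.14 when scaled by library size alone. Whether the 44 genes differ from these was not tested.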

How the data were processed

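The authors deposited 1 table with a read count, a gene length in bases and an RPKM value per feature and library, per the file headers. The deposited counts are whole numbers and not normalized. The deposited RPKM values equal count over length and column total to a relative difference of 5.22e-15. Per the submitters' processing notes, FastQC, HISAT2 2.1.0, DESeq2 1.24.0 and edgeR were used, with no role stated. The counter, annotation, genome build and strandedness were not stated in these sources. Libraries were made with a TruSeq RNA kit from total RNA, per the labels' protocols.

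In R 4.3.3, edgeR 4.0.16 was run on the counts of all 10988 features (filterByExpr, TMM scaling, two-sided quasi-likelihood test), tyrosol over untreated, and p-values were adjusted over all 8905 tested features. A call is an adjusted p under 0.05. The SE was derived as the absolute log2 fold change over the square root of the F statistic. The script was tested on simulated data in which few genes changed. Most tested features were called changed here, so that test does not bear on scaling or call rates in these data. The genes and lists were chosen with earlier results of these data known. Named in full are the rises, the 10 largest falls, the 5 highest genes per group, neighbouring pairs and untested genes, and at most 2 flanking genes per region; others are said to be named after their values were seen. Replicates differed beyond counting error, at 5.15 to 23 chi-square units per degree of freedom. DESeq2 1.42.0, limma 3.58.1, other scalings and filters, and leaving out each library were alternatives. Tables naming synthase domains, proteins or promoters were not used here.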

Additional observations from a re-analysis of the deposited data

How the results depend on the processing

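Of 452 alternative fits of the 27 tested genes, 427 kept direction and call, 9 lost a call, 10 gained one and 6 changed sign; 19 genes kept direction and call in all. Every change of sign was in AN1242, without a call in any: its log2 fold change was -0.01 with upper-quartile factors, -0.16 with library size alone, -0.13 and -0.17 with limma on log2(RPKM + 1) and log2(RPKM + 0.1), and with 1 library left out it ran from -0.10 without tyrosol replicate 2 to 0.21 without tyrosol replicate 1, below 0 also without untreated replicate 2 (-0.07). The count of raised genes was 4 to 6 and of lowered genes 12 to 21, the lowest with at least 50 reads required in 3 libraries, where fewer genes were tested. Rises of at least 2-fold numbered 3 with limma on log2(RPKM + 1), where the added 1 shrinks low genes. The count of silent genes was 26 as a mean under 1 RPKM in both groups and 3 as at most 3 reads in every library. Flanking genes raised and lowered numbered 57 and 51 with 3 genes on each side and 226 and 179 with 10, from fewer and more genes. With 1 library left out, raised genes stayed at 6 and lowered ones ran from 16 to 20. With the replicate block 6 rose and 17 fell. Same-numbered libraries did not deviate together (r of -0.0821, -0.00573 and -0.0401). Differently numbered ones had r of -0.0433 to 0.078. Deviations were taken from group means of 3 libraries, so these values cannot decide whether the numbers pair libraries. Genes under about 10 reads per library are limited by depth.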
